A study of Mus musculus with 6 samples.

Results

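Metabolic nuclear receptors are transcription factors that let the liver read its lipids, bile acids and foreign compounds. Described here are 10 of them, the genes Nr0b2, Nr1h4, Nr5a2, Nr1h3, Nr1h2, Nr1i2, Nr1i3, Ppara, Rxra and Esrra. They were taken by name from the 23284 genes of the count tables, by a rule that uses no measured value, though with earlier results of these data known. After FGF19, Nr0b2 (SHP) was higher, Nr1h4 (FXR) and Nr1i3 (CAR) were lower, and the other 7 receptors did not pass the test.

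RNA-seq was carried out on the livers of C57BL/6 mice, 8 weeks old, 3 given vehicle and 3 given FGF19, the human form of the hormone that the mouse ileum makes as FGF15. All mice were fasted overnight, received FGF19 at 1 mg/kg or vehicle, and stayed without food until the livers were taken 6 h later. No engineered allele is named for either group, and fasting was shared by both. The study asked which hepatic genes this hormone of the fed state moves, and the comparison here is FGF19 against Vehicle for the receptors themselves.

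Most of these receptors share a zinc-finger domain that binds DNA and a pocket that binds a small lipid, and many work as a pair with RXRα, the product of Rxra. FXR is the receptor for bile acids. In the classical feedback loop of bile acid synthesis FXR induces Nr0b2, and SHP, the protein that Nr0b2 encodes, has no DNA-binding domain of its own and represses genes by binding to other receptors such as LRH-1 (Nr5a2). Ileal FGF15/19 is the hormonal arm of the same loop.

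Libraries held 18994654 to 22920056 reads counted in genes, and 12559 genes passed the filter on low counts, all 10 receptors among them. Levels are given as CPM, read counts put on a common depth and scaled with TMM factors of 0.964 to 1.03, and 3 counts, the limit that a count of 0 allows, stood at 0.136 to 0.159 CPM, counting error only. Hepatocyte markers summed to 100980 to 105530 CPM in Vehicle and 94125 to 104149 CPM in FGF19 livers, with none of 7 tested markers past the test. In a bulk sample fewer cells of a type and less RNA per cell cannot be told apart. Genes were tested with the quasi-likelihood (QL) test of edgeR, p-values were adjusted over all tested genes by Benjamini and Hochberg's method (BH), and a gene passed where the adjusted p was under 0.05.

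The promoters of the 3 receptors that passed are shown because these genes moved and because Nr0b2 holds letters that LRH-1 and the ERR receptors recognise. Each is the 250 bases before the outermost annotated start, on the gene's own strand of mouse build mm9, and capitals mark AGGTCA or TCAAGG on either strand. Nr0b2 is at chr4:133109055-133109304 on the plus strand, Nr1h4 at chr10:88996368-88996617 on the minus strand and Nr1i3 at chr1:173143851-173144100 on the plus strand.
Nr0b2: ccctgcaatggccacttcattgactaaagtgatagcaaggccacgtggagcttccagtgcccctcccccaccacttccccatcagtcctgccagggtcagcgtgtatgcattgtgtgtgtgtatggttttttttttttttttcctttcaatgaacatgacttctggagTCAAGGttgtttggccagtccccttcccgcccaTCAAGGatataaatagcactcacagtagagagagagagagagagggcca
Nr1h4: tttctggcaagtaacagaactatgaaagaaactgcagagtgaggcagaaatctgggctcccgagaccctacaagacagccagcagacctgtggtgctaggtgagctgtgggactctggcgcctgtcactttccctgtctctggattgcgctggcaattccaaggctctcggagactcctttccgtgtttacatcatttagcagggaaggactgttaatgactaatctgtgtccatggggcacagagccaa
Nr1i3: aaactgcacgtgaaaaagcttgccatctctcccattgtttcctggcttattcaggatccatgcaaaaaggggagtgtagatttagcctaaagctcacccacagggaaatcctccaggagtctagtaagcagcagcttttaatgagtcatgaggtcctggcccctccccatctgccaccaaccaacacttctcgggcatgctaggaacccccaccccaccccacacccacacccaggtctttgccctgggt

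TCAAGG is the start of the extended site that LRH-1 and the ERR receptors read, and AGGTCA is the shared core that most nuclear receptors bind alone or in repeats. In the Nr0b2 promoter TCAAGG occurred 2 times, 82 and 49 bases before the start, and 11.8% of 23102 promoters of the same length held it at least once. No match to AGGTCA or TCAAGG was found in the windows of Nr1h4 and Nr1i3. Among the other 7 members, only Nr5a2 held a match, 1 AGGTCA 64 bases before its start, against 12.2% of all promoters. Pairs of the core were also searched on both strands. The inverted repeat that FXR with RXRα can bind, AGGTCA and after 1 base of any kind TGACCT, was in 0.00433% of promoters and in no member. The direct repeat bound by PPARα with RXRα, AGGTCA and after 1 base AGGTCA again, was in 0.0563% and in no member. The direct repeat bound by LXR with RXRα, with 4 bases between, was in 0 of the 23102. CACGTG, the E-box of clock and MYC-family factors, was present in the windows of Nr0b2, 209 bases before the start, and of Nr1i3, 244 bases before it, against 6.66% of promoters. All windows were placed by the exon starts of the count tables. That of Nr1i3 is identical to the promoter sequence RefSeq gives, while those of Nr0b2 and Nr1h4 are not, so another choice of start could show other letters. These matches describe letters in a window, and they do not show that a factor was bound.

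Nr0b2, which encodes the repressor SHP, was the only one of the 10 receptors that rose. Its level was 13.9, 21.8 and 30.9 CPM in the Vehicle livers and 64.5, 54.5 and 54.8 CPM in the FGF19 livers. Every FGF19 liver was above every Vehicle liver. The means were 22.2 ± 8.51 and 57.9 ± 5.69 CPM (SD, n = 3 each), a log2 fold change of 1.38 (95% interval 0.86 to 1.90, standard error 0.232, edgeR QL test, BH-adjusted p = 0.00823), which is 2.61-fold. Raw counts were 292, 411 and 623 against 1387, 1187 and 1210. The Vehicle livers were the more scattered, with a coefficient of variation of 38.3% where counting alone would give 4.76%, against 9.82% in the FGF19 livers. Leaving out any single library kept the call, with log2 fold changes of 1.14 to 1.70. The gene spans chr4:133109305-133112451 on the plus strand in mm9 with 2 exons.

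**Figure D1:**
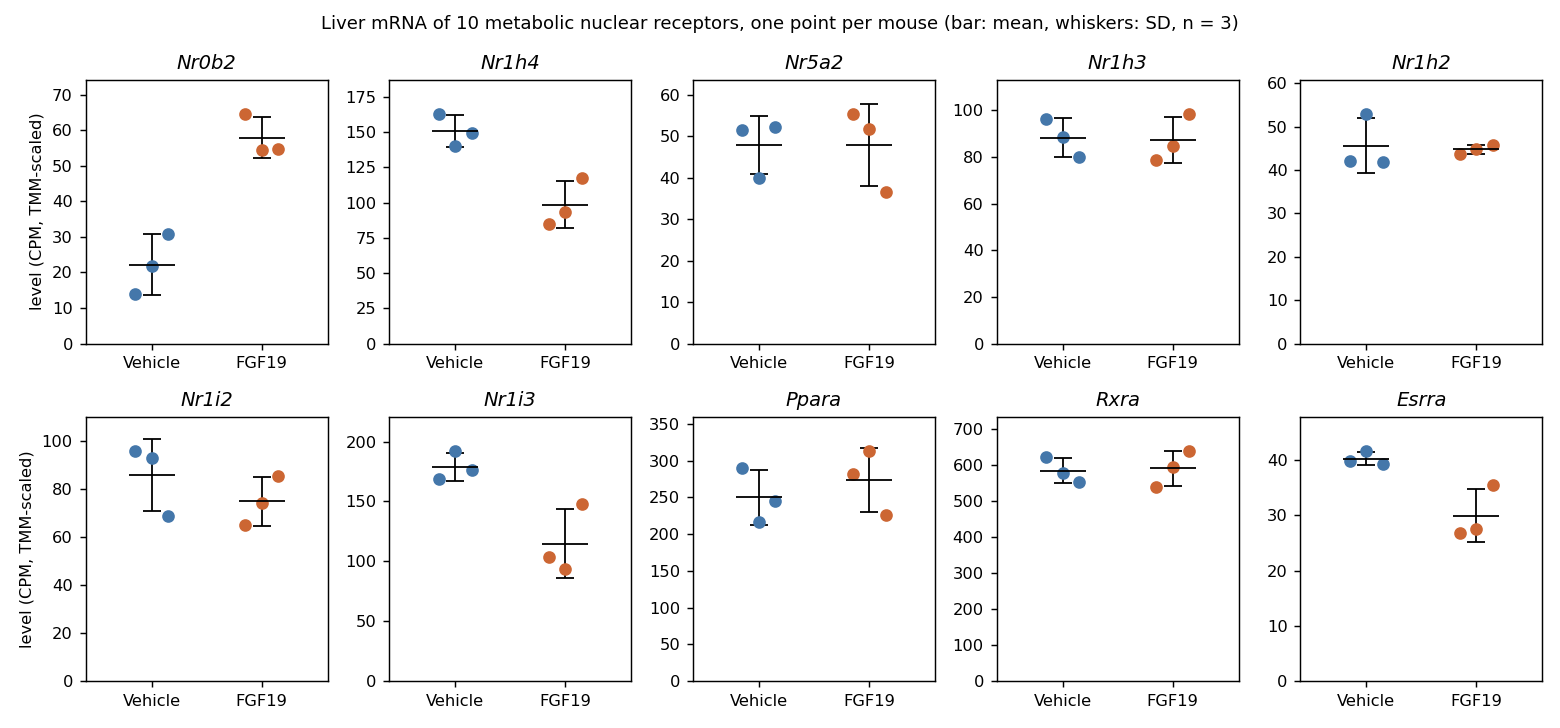
Level of each of the 10 receptors in CPM (vertical axes start at 0 and differ between panels) in 3 Vehicle and 3 FGF19 livers, points being livers and bars the mean with its SD. Nr0b2 lies higher in all FGF19 livers, Nr1h4, Nr1i3 and Esrra lie lower in all of them, and the groups overlap for the other 6.

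Nr1h4, which encodes the bile acid receptor FXR, fell. Its level was 163, 140.3 and 149 CPM in the Vehicle livers and 84.9, 93.1 and 117 CPM in the FGF19 livers. All FGF19 livers were below all Vehicle livers, and FGF19 liver 3 stood nearest to them. The means were 151 ± 11.3 and 98.4 ± 16.8 CPM (SD, n = 3 each), a log2 fold change of -0.61 (standard error 0.125, 95% interval -0.89 to -0.33, edgeR QL test, BH-adjusted p = 0.0185), so that Vehicle was 1.53-fold above FGF19. The call depended on single libraries. It was lost on leaving out Vehicle liver 1, Vehicle liver 3, FGF19 liver 1 or FGF19 liver 2, with adjusted p up to 0.0865 in the BH-adjusted edgeR QL test, while the log2 fold change stayed between -0.75 and -0.52. Nr1h4 spans chr10:88916979-88996367 on the minus strand, with 11 merged exons.

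Nr5a2, which encodes LRH-1, the activator of bile acid synthesis genes that SHP represses, had equal means in both groups. Its level was 51.4, 39.8 and 52.2 CPM in Vehicle and 55.3, 51.7 and 36.5 CPM in FGF19 livers. The lowest values of the 2 groups, Vehicle liver 2 and FGF19 liver 3, stood apart from the other livers, and the groups overlapped. The log2 fold change of -0.0012 had a 95% interval of -0.37 to 0.36, so that a change anywhere within these bounds is compatible with the 3 livers per group.

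The ratio of the 2 receptors is given as a description only, since it follows from the rise of Nr0b2 and the fall of Nr1h4. Per kilobase of exon, Nr0b2 stood at 0.179, 0.325 and 0.434 of the level of Nr1h4 in the Vehicle livers and at 1.59, 1.23 and 0.977 of it in the FGF19 livers. The groups did not overlap, and the difference was 2.08 on the log2 scale. Leaving out single libraries gave differences of 1.72 to 2.36.

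Nr1i3 encodes CAR, which induces drug-metabolising enzymes in response to foreign compounds and bilirubin. Its level was 169, 192 and 176 CPM in the Vehicle livers and 103, 93.7 and 148 CPM in the FGF19 livers. All FGF19 livers were lower than all Vehicle livers, FGF19 liver 3 by the smallest distance. The means were 179 ± 11.7 and 115 ± 28.7 CPM (SD, n = 3 each), a log2 fold change of -0.64 (standard error 0.156, 95% interval -0.99 to -0.29, edgeR QL test, BH-adjusted p = 0.0381), with Vehicle 1.56-fold above FGF19. The call held without FGF19 liver 3 and was lost on leaving out any other library. There the adjusted p reached 0.139 in the BH-adjusted edgeR QL test, and the log2 fold change stayed at or below -0.505. Nr1i3 spans chr1:173144101-173148976 on the plus strand, and 257 of its 1414 exon bases are also exon of Tomm40l, where reads would be given to neither gene under the counter's default settings.

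Nr1i2 encodes PXR, the xenobiotic sensor that shares many target genes with CAR. It stood at 95.8, 93.1 and 68.7 CPM in Vehicle and 65.3, 74.3 and 85.6 CPM in FGF19 livers. The groups overlapped, and the log2 fold change of -0.19 (95% interval -0.52 to 0.13) did not pass the test, with a BH-adjusted p of 0.475 in the edgeR QL test. Per kilobase, PXR transcript was 0.318, 0.272 and 0.218 of CAR transcript in the Vehicle livers and 0.354, 0.444 and 0.325 of it in the FGF19 livers. CAR may be understated here in all livers, since reads in its exon bases shared with Tomm40l would be given to neither gene. The group means of the ratio differed by 0.48 on the log2 scale. The groups did not overlap, but FGF19 liver 3 stood only just above Vehicle liver 1. A two-sided exact permutation test over the 3 livers of each group gave p = 0.1, the smallest that this design allows, and 0.15 after Benjamini-Hochberg adjustment over the 3 ratios examined.

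Esrra encodes ERRα, an orphan receptor that drives genes of mitochondrial respiration. Its level was 39.9, 41.6 and 39.3 CPM in Vehicle and 26.8, 27.6 and 35.5 CPM in FGF19 livers. The groups did not overlap, the Vehicle livers lay within a coefficient of variation of 2.93%, and FGF19 liver 3 was again the nearest to them. The log2 fold change of -0.43 (standard error 0.117, 95% interval -0.69 to -0.16) had an unadjusted p of 0.00499 and an adjusted p of 0.0606 in the BH-adjusted edgeR QL test, which missed the threshold. Without FGF19 liver 3 the adjusted p was 0.00338 by the BH-adjusted edgeR QL test, and without each other library Esrra did not pass, the highest value being 0.221. It passed in 4 of 7 other settings, DESeq2 among them.

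Nr1h3 and Nr1h2 encode LXRα and LXRβ, the receptors for oxysterols that control cholesterol efflux and, through Srebf1, fatty acid synthesis. Nr1h3 was measured at 96.5, 88.6 and 80.1 CPM in Vehicle and 78.9, 84.7 and 98.4 CPM in FGF19 livers, with a log2 fold change of -0.02 (95% interval -0.26 to 0.23). Nr1h2 was measured at 42.1, 52.9 and 41.9 CPM in Vehicle and 43.8, 44.9 and 45.8 CPM in FGF19 livers, with a log2 fold change of -0.03 (95% interval -0.27 to 0.21). In both genes the groups overlapped. LXRα transcript exceeded LXRβ transcript per kilobase in all livers, by 2.21, 1.61 and 1.84 times in Vehicle and 1.74, 1.82 and 2.07 times in FGF19, and the groups differed by -0.0010 on the log2 scale, with an exact permutation p of 1.

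Ppara encodes PPARα, the fatty acid receptor that turns on fat oxidation and ketone synthesis in fasting. It stood at 289.7, 216 and 245 CPM in the Vehicle livers and 282, 313 and 226 CPM in the FGF19 livers. The groups overlapped, with a log2 fold change of 0.13 (95% interval -0.19 to 0.45). Rxra, the common partner of FXR, LXR, PXR, CAR and PPARα, was at 622, 578 and 553 CPM in Vehicle and 540.4, 595 and 638 CPM in FGF19 livers. Its groups overlapped too, and its interval, -0.20 to 0.23 around a log2 fold change of 0.02, was the narrowest of the 10.

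**Figure D2:**
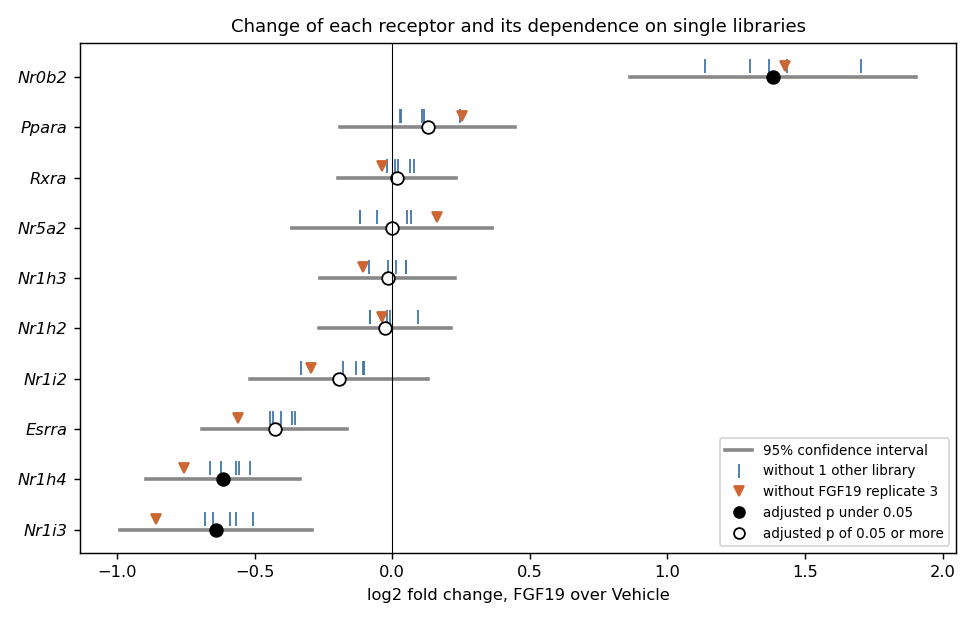
Log2 fold change of FGF19 over Vehicle for the 10 receptors, points being estimates of the edgeR QL fit and bars their 95% intervals. The estimates run from -0.64 for Nr1i3 to 1.38 for Nr0b2.

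Over the 10 receptors, 1 was higher and 2 were lower past the BH-adjusted edgeR QL test. Of all 12559 tested genes, 4.56% were higher and 2.84% lower by the same test, 7.41% in all. At an unadjusted p under 0.01, the threshold of the study, 1 receptor was higher and 3 lower, against 6.20% and 4.98% of all genes, or 11.2% in either direction. By the ranges alone, 1 receptor was higher and 3 were lower without overlap between groups, where 14.5% of all genes were higher and 13.8% lower in this way, 28.3% in all. The median log2 fold change was -0.02 over the receptors, 7 of them below 0, and -0.000763 over all genes tested. The count of lower receptors fell to 0 on leaving out Vehicle liver 1, Vehicle liver 3, FGF19 liver 1 or FGF19 liver 2, fell to 1 without Vehicle liver 2, and reached 3 without FGF19 liver 3.

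Levels can be set beside each other once the counts are divided by exon length. Nr1i3 may be understated in this measure, since 257 of its 1414 exon bases are also exon of Tomm40l. Esrra may be too, with 50 of 2242 exon bases shared with Trmt112. In the Vehicle livers the order was Nr1i3 (127 ± 8.29 CPM per kilobase), Rxra (111 ± 6.63), Nr1h4 (64.4 ± 4.83), Nr1h3 (43.4 ± 4.02), Nr1i2 (34.0 ± 5.91), Ppara (33.2 ± 4.94), Nr1h2 (23.3 ± 3.20), Nr0b2 (19.9 ± 7.61), Esrra (18.0 ± 0.526) and Nr5a2 (12.4 ± 1.80), each with its SD over 3 livers. The ranges of Nr1i2 and Ppara, of Nr1h2 and Nr0b2 and of Nr0b2 and Esrra overlapped, so these neighbours were not separated by their spread. In the FGF19 livers Rxra (112 ± 9.31 CPM per kilobase) stood first and Nr1i3 (81.2 ± 20.3) second, with overlapping ranges. Nr0b2 moved from the eighth place to the third (51.8 ± 5.09 CPM per kilobase), where its range of 48.8 to 57.7 did not meet those of the second and the fourth but overlapped that of Nr1h4, 36.3 to 50.1, whose level in FGF19 liver 3 (50.1) was above that of Nr0b2 (49.0). Nr1h4 moved from the third to the fifth place (42.1 ± 7.19 CPM per kilobase), where it could not be separated from Nr1h3 (42.9 ± 4.91) or Ppara (36.3 ± 5.82). Esrra (13.4 ± 2.14) and Nr5a2 (12.4 ± 2.58) closed the order in both groups. Among all tested genes the receptors ranked high by this measure, from the percentile 70.9 for Nr5a2 to 95.3 for Rxra.

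**Figure D3:**
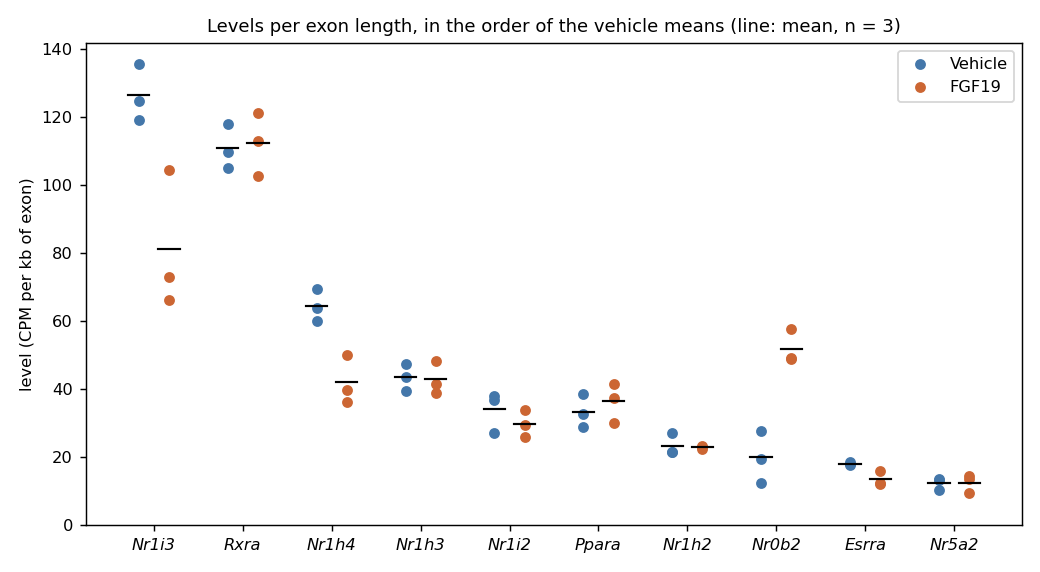
Level of each receptor in CPM per kilobase of exon (linear axis) in the 3 Vehicle and 3 FGF19 livers, points being livers. Nr0b2 shifts from 12.4 to 27.6 in Vehicle up to 48.8 to 57.7 in FGF19 livers, while Rxra stays near 111.

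Some genes outside the 10 followed Nr0b2 or Nr1h4 closely across the 6 libraries. Likeness was measured as the root mean square difference between log2 CPM values, each centred on its gene's mean, over 11656 genes, and it is a description in which the group difference takes part. Nearest to Nr0b2 were Spry4, an inhibitor of receptor tyrosine kinase signalling (difference 0.221), Il1rn, the interleukin-1 receptor antagonist (0.233), and Mlkl, the executor of necroptosis (0.242). Their log2 fold changes were 1.53, 1.66 and 1.24. Spry4 stood at 3.91, 4.93 and 5.90 CPM in Vehicle and 13.1, 14.0 and 15.6 CPM in FGF19 livers. Nearest to Nr1h4 were Pex26, a peroxisome biogenesis factor (0.0423), Acot13, an acyl-CoA thioesterase (0.0520), and Slc47a1, an organic cation exporter (0.0741), with log2 fold changes of -0.59, -0.56 and -0.63. Pex26 and Acot13 lost their calls without Vehicle liver 1, Vehicle liver 3, FGF19 liver 1 or FGF19 liver 2. Pex26 stood at 33.9, 29.5 and 29.0 CPM in Vehicle and 18.0, 19.3 and 23.9 CPM in FGF19 livers.

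The lists of target genes and of other receptors that follow were assembled from textbook knowledge with earlier results of these data known. Among 39 other nuclear receptors, 27 were tested, and 4, Rorb, Nr2e1, Nr2e3 and Nr0b1, had 0 counts in every library. By the BH-adjusted edgeR QL test 1 was higher and 1 lower, against 4.56% and 2.84% of all 12559 genes tested. The list's median log2 fold change was -0.03. Nr4a1, an immediate-early orphan receptor, rose from 1.67, 1.69 and 1.54 CPM to 7.95, 3.54 and 2.58 CPM, with a BH-adjusted p of 0.0494 in the edgeR QL test. Nr4a1 lost its call in 5 of 6 fits that left out a library, where the BH-adjusted edgeR QL p reached 0.166 without Vehicle liver 3, and kept it without FGF19 liver 3, at 0.0109. It was also lost without TMM scaling, under a filter of 1 CPM in every library and in limma-voom. Hnf4a, which maintains hepatocyte identity, stood at 828, 890.3 and 798 CPM in Vehicle and 595, 666 and 764 CPM in FGF19 livers, and its log2 fold change of -0.31 did not pass (edgeR QL test, BH-adjusted p = 0.120). Of the fits leaving out 1 library it passed only in that without FGF19 liver 3, with a BH-adjusted edgeR QL p of 0.0194. Without FGF19 liver 3 the list held 4 higher and 2 lower receptors, and without Vehicle liver 1 also 2 lower ones. Rxrb, the second RXR, had a log2 fold change of -0.18 and overlapping groups. None of 17 coregulators passed the BH-adjusted edgeR QL test, none had an unadjusted p under 0.01, and their median log2 fold change was -0.03.

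Of 12 targets of FXR, LRH-1 and SHP, 11 were tested, 4 were lower and none was higher in the BH-adjusted edgeR QL test. Among all 12559 genes tested, 2.84% were lower and 4.56% higher by that test. The list's median log2 fold change was -0.26, and 9 of the 11 fold changes were negative, beside 6291 over all genes. Slc51a, listed as Osta, had 0 counts in every library. Cyp7a1, the rate-limiting enzyme of bile acid synthesis, fell from 309.7, 272 and 222 CPM to 9.35, 12.4 and 12.4 CPM, a log2 fold change of -4.56 (standard error 0.166, edgeR QL test, BH-adjusted p = 9.41e-07), which was the largest fall of all genes tested. Cyp8b1, the sterol hydroxylase that sets the share of cholic acid, fell from 1270.0, 1357 and 1196 CPM to 881, 670.1 and 822 CPM, a log2 fold change of -0.69 (edgeR QL test, BH-adjusted p = 0.00855). Abcb11, the bile salt export pump that FXR induces, was at 383, 415 and 272 CPM in Vehicle and 241, 244 and 185 CPM in FGF19 livers. Its log2 fold change of -0.68 passed with a BH-adjusted p of 0.0383 in the edgeR QL test, but it remained past the test in only 1 of the 6 fits that left out a library, the one without Vehicle liver 3, and was lost without TMM scaling. Slc10a1, the bile acid uptake transporter NTCP, had a log2 fold change of -0.58 (edgeR QL test, BH-adjusted p = 0.00908, lost only without FGF19 liver 1) and is named because it completes the 4, chosen after its values were seen. Without FGF19 liver 1 the count of lower targets was 2.

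Of 16 tested targets of PXR and CAR, 3 were lower and none higher in the BH-adjusted edgeR QL test, all 16 had a negative fold change and their median was -0.45 on the log2 scale. Over all 12559 genes tested, 2.84% were lower and 6291 had a negative fold change. Cyp2a5, a CAR-responsive cytochrome P450, fell from 622, 367 and 467 CPM to 147, 183 and 167 CPM, a log2 fold change of -1.55 (edgeR QL test, BH-adjusted p = 0.00112), and passed without any single library. Gsta2, a glutathione transferase, had a log2 fold change of -0.85 (edgeR QL test, BH-adjusted p = 0.0349) and passed only when Vehicle liver 2 was the one left out. Aldh1a1, a retinaldehyde dehydrogenase, had a log2 fold change of -0.60 (edgeR QL test, BH-adjusted p = 0.0215), lost without Vehicle liver 1, FGF19 liver 1 or FGF19 liver 2. By the ranges alone, 8 of the 16 were lower without overlap between groups and none higher, against 13.8% and 14.5% of all genes. The best known targets of the pair were not among these 8 and overlapped between groups. Cyp3a11, the PXR target, was at 6433, 6346 and 6580.5 CPM against 6522, 5439 and 5873 CPM, and Cyp2b10, the CAR target, was at 14.5, 36.7 and 18.8 CPM against 16.4, 13.9 and 24.8 CPM. Both were chosen after their values were seen. Without Vehicle liver 1, FGF19 liver 1 or FGF19 liver 2 the count of lower targets was 1, and without Vehicle liver 2 it was 5.

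The 10 LXR targets went both ways, with 1 higher and 1 lower in the BH-adjusted edgeR QL test and a median log2 fold change of 0.12. Over all 12559 genes tested, 4.56% were higher and 2.84% lower. Abcg8, a subunit of the sterol exporter of bile, was at 91.2, 90.04 and 112 CPM in Vehicle and 144, 140.1 and 128 CPM in FGF19 livers, a log2 fold change of 0.49 (edgeR QL test, BH-adjusted p = 0.0249). Scd1, the desaturase that makes monounsaturated fatty acids, was at 2570.3, 1303 and 1600.3 CPM in Vehicle and 912, 862 and 666 CPM in FGF19 livers, a log2 fold change of -1.17 (edgeR QL test, BH-adjusted p = 0.0160). Neither gene overlapped between groups. Abcg8 lost its call without Vehicle liver 1, Vehicle liver 2, FGF19 liver 1 or FGF19 liver 2, and Scd1 without FGF19 liver 2. Without FGF19 liver 3 there were 2 higher LXR targets, and without Vehicle liver 1 there were 2 lower ones.

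Among 20 PPARα targets, 3 were higher and 1 lower in the BH-adjusted edgeR QL test, where 4.56% of all 12559 genes were higher and 2.84% lower. The median log2 fold change of the list was 0.06. Plin2, which coats lipid droplets, rose from 489.8, 375 and 443 CPM to 929.9, 1101 and 884 CPM, a log2 fold change of 1.16 (edgeR QL test, BH-adjusted p = 0.000908), and passed without any single library. Fgf21, the fasting hormone of the liver, had a log2 fold change of 1.18 (edgeR QL test, BH-adjusted p = 0.0361), and Pdk4, the kinase that shuts off pyruvate oxidation, one of 0.78 (edgeR QL test, BH-adjusted p = 0.0292). Over the fits leaving out 1 library, both kept their call only without FGF19 liver 3, and Fgf21 lost it without TMM scaling and in limma-voom. Acaa1b, a peroxisomal thiolase, was lower by a log2 fold change of -0.54 (edgeR QL test, BH-adjusted p = 0.0202), lost without Vehicle liver 1, Vehicle liver 3, FGF19 liver 1 or FGF19 liver 2. The count of higher targets was 1 without Vehicle liver 2, Vehicle liver 3, FGF19 liver 1 or FGF19 liver 2.

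Of 12 mitochondrial genes of the ERRα network, 11 had a negative fold change, 1 passed as lower in the BH-adjusted edgeR QL test and the median log2 fold change was -0.19, beside 6291 negative fold changes and 2.84% lower among all 12559 genes tested. The count of lower genes was 3 without FGF19 liver 3, and 0 without Vehicle liver 1, Vehicle liver 3, FGF19 liver 1 or FGF19 liver 2.

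**Figure D4:**
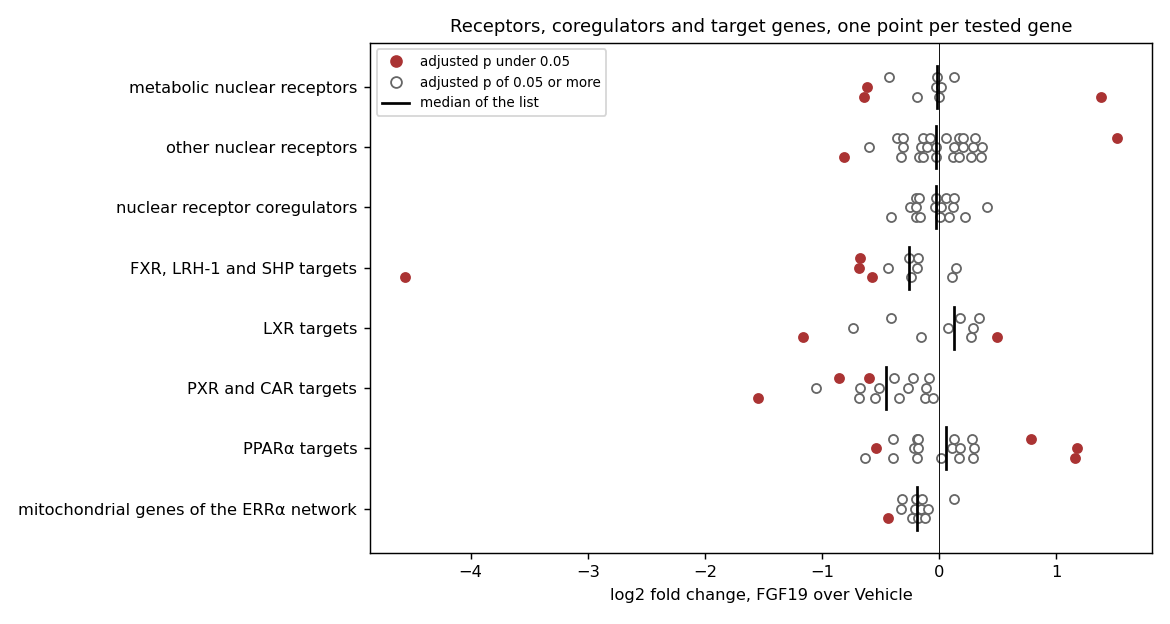
Log2 fold change of FGF19 over Vehicle for each tested gene of the receptors, the other nuclear receptors, the coregulators and the target lists, points being genes. The medians run from -0.45 for the targets of PXR and CAR to 0.12 for the LXR targets.

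Markers of other liver cells were read in the same libraries. Of the neutrophil and monocyte markers 2 were tested, and S100a9 rose from 0.238, 0.212 and 1.04 CPM to 1.67, 2.30 and 2.76 CPM, a call lost without Vehicle liver 1, Vehicle liver 2, FGF19 liver 1 or FGF19 liver 2. The whole list summed to 1.86 to 2.53 CPM in Vehicle and 5.07 to 6.94 CPM in FGF19 livers, without overlap. Of 6 Kupffer cell markers 1, the scavenger receptor Marco, rose with a log2 fold change of 2.29 (edgeR QL test, BH-adjusted p = 0.00105). Emr1 and Timd4 had log2 fold changes of 0.36 and 0.09, and Vsig4, Clec4f and Cd5l of -0.54, -0.29 and -0.22, none past the test. The list summed to 146 to 181 CPM in Vehicle and 146 to 171 CPM in FGF19. Marco made up 4.67, 4.24 and 9.53 CPM of the Vehicle sums and 28.5, 32.4 and 29.5 CPM of the FGF19 sums. None of the tested markers of lymphocytes (4), sinusoidal endothelium (5), stellate cells (6), cholangiocytes (4), adipocytes (1), pancreatic acinar cells (1) and red cells (1) passed that test, and Retn, Ctrb1 and Prss1 had 0 counts in all libraries. The globin genes Hba-a1, Hba-a2, Hbb-b1 and Hbb-b2 were also listed at 0, but 1112 of the 1118 exon bases of Hba-a1 are shared with Hba-a2 and 606 of the 626 of Hbb-b1 with Hbb-b2, where reads would be given to neither gene, so these zeros say nothing of globin RNA. Alas2, the heme synthesis enzyme of red cell precursors, stood at 77.0, 78.6 and 57.2 CPM in Vehicle and 48.1, 43.6 and 57.5 CPM in FGF19 livers. The part of these cells in the receptor values was not tested.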

How the data were processed

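Total liver RNA of 3 Vehicle and 3 FGF19 mice was sequenced. The authors aligned reads to mm9 and deposited raw counts per gene from featureCounts (1.5.2), with STAR (2.5.3a) and Trimmomatic (0.36) also named in the submitters' processing notes. Exon lengths in the same deposited tables served as the unit for levels per kilobase. The deposited table of the authors' own fold changes and p-values was not used. Genes were kept by edgeR's filterByExpr, scaled by TMM and tested with edgeR (4.0.16, R 4.3.3) glmQLFit and glmQLFTest, on group only. DESeq2 (1.42.0) and limma-voom (limma 3.58.1) were alternatives. CPM means are given ± SD over livers. The test was checked on simulated data for this comparison with 12559 genes: of 100 genes changed by a log2 of 0.75 it recovered 86, and all 100 at 1.5, and it also called 12 unchanged genes. Every simulated gene had the same scatter beyond counting error (dispersion 0.0163), and the changed genes were drawn only from those above a minimum level. Recovery of more scattered or weaker genes was therefore not tested. Reads were counted without strand. Labels number the mice within a group, and nothing more is said of their litters or batches, so p-values measure the spread between these samples.

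The members and lists were chosen with earlier results of these data known. Named genes were all 10 receptors, at most the 3 largest rises and 3 largest falls past the threshold in each list, always Cyp7a1, Cyp8b1, Abcb11, Hnf4a and Rxrb, and the 3 nearest genes to Nr0b2 and Nr1h4 with a mean of at least 1 CPM (pseudocount 0.5 CPM). Promoter windows were read from the mm9 genome. Single genes that this rule names but that are withheld are not reported here.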

Additional observations from a re-analysis of the deposited data

How the results depend on the processing

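Over fits leaving out 1 library, higher genes numbered 236 to 1016 (573 with all) and lower genes 91 to 927 (357), both highest without FGF19 liver 3. Over the same fits lower receptors numbered 0 to 3 (2 with all), or 1 to 3 at an unadjusted p under 0.01 (3), and receptors without overlap 1 to 2 higher and 3 to 4 lower, where 17.5% to 24.9% of all tested genes were higher and 16.6% to 24.6% lower without overlap. Other nuclear receptors numbered 0 to 4 higher and 1 to 2 lower, coregulators 0 to 1 in each direction, FXR, LRH-1 and SHP targets 2 to 4 lower, LXR targets 0 to 2 in each direction, PXR and CAR targets 1 to 5 lower, PPARα targets 1 to 4 higher and 0 to 2 lower, and the mitochondrial genes 0 to 3 lower. The likelihood ratio test gave 579 lower genes. DESeq2 gave 2 lower other receptors, 6 lower PXR and CAR targets and 4 lower PPARα targets. Without a low-count filter there were 2 lower other receptors and 2 lower PPARα targets, and without TMM 0 higher other receptors and 2 lower PPARα targets. A filter of 1 CPM in every library left 0 higher other receptors, and an adjusted p under 0.01 left 0 lower receptors. Nr0b2, Nr1h4 and Nr1i3 kept their calls in all 7 other settings. Signs turned on leaving out libraries for Nr5a2 (-0.12 to 0.16), Nr1h3 (-0.11 to 0.051), Nr1h2 (-0.082 to 0.093) and Rxra (-0.037 to 0.078), and for Nr5a2 under the 1 CPM filter (0.0043), none past the test.

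Same-numbered livers did not deviate together (correlations over genes -0.05, -0.23 and -0.21), and differently numbered ones gave -0.14 to 0.26. With 3 livers per group these values cannot show that pairing is absent. The labels name no pairs, so the numbers were not taken as pairs. With replicate number as a block, 370 genes were higher and 164 lower, the receptors still numbered 1 higher and 2 lower, and Nr0b2 had a log2 fold change of 1.44, while Abcg8, Gsta2, Pdk4, Acaa1b, Pex26 and Acot13 did not pass.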
